A study of Mus musculus with 7 samples.

Results

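The genes followed here were the 4 *Id* genes and 6 components of bone morphogenetic protein (BMP) signalling, chosen by symbol: *Id1*, *Id2*, *Id3*, *Id4*, *Bmp4*, *Bmp7*, *Bmpr1a*, *Bmpr1b*, *Smad6* and *Smad7*. Each symbol matched 1 row, which gave 10 of the 48440 genes listed. Bulk RNA-seq counts were available for 7 libraries of mouse retina at E16, all carrying Chx10-Cre: 1 without a floxed allele (Chx10Cre, here WT), 3 with 1 floxed *Ptbp1* allele (Chx10-Cre;Ptbp1lox/WT, Het) and 3 with a pair of them (Chx10-Cre;Ptbp1lox/lox, KO). The loxP sites flank the promoter and first exon of *Ptbp1*, which encodes a splicing repressor, and the Cre is active in retinal progenitors, so cells outside that lineage, such as vessels and mesenchyme, keep the gene. Each library was made from a pool of 4 to 6 retinas. The question addressed was whether these genes differed between Het and KO retinas.

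BMP ligands such as Bmp4 and Bmp7 bind type 1 receptors, among them Bmpr1a and Bmpr1b, together with type 2 receptors. The activated receptors phosphorylate Smad1, Smad5 and Smad9, which enter the nucleus with Smad4 and induce targets that include the *Id* genes and the inhibitory *Smad6* and *Smad7*. Id proteins hold a helix-loop-helix domain but no DNA-binding region. They bind E proteins and keep them from pairing with the proneural factors that start neuronal differentiation. In the eye, BMP signalling is known for dorsal patterning, lens induction and formation of the ciliary margin at the rim of the retina.

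Promoter windows are shown for 3 *Id* genes, to set members of the family side by side, and for *Bmp4*, the gene that varied most between libraries. They come from RefSeq on GRCm38.p6 and run from 250 bases before to 50 bases after the annotated start. Windows were taken for 7 of the 10 genes, and the sequences of *Id1*, *Bmp7* and *Smad7* are not shown. Capitals mark GGCGCC, the GC-rich element that BMP-activated Smads are known to bind, and CANNTG, the E-box bound by the E proteins that Id proteins sequester. The windows are *Id2* at chr12:25096043-25096342 on the minus strand, *Id3* at chr4:136143572-136143871 on the plus strand, *Id4* at chr13:48260866-48261165 on the plus strand, and *Bmp4* at chr14:46390620-46390919 on the minus strand.
Id2: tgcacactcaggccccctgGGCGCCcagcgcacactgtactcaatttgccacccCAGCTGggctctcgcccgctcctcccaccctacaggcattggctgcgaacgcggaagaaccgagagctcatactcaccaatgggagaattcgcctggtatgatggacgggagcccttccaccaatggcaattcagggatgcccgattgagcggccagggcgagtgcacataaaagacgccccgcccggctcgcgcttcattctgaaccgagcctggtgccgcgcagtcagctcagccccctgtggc
Id3: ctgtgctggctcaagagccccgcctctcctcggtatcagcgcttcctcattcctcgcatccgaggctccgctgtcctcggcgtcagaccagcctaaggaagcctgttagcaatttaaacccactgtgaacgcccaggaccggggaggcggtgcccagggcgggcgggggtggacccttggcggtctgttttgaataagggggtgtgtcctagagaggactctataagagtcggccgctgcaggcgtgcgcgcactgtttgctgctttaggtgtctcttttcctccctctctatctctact
Id4: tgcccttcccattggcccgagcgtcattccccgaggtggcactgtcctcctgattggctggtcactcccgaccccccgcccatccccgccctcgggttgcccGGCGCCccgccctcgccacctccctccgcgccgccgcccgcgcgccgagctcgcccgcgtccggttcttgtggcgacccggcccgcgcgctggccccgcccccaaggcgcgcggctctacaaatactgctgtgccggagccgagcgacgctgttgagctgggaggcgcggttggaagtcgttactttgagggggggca
Bmp4: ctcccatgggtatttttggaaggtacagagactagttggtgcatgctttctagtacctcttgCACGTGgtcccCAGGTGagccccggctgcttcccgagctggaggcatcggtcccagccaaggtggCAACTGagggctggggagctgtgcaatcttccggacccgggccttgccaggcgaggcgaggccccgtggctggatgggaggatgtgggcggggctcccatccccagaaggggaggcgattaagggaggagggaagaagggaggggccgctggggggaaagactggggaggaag
Both motifs read the same on either strand and were searched over the whole window. GGCGCC was found in 11.9% of 32817 promoter windows and CANNTG in 72.3%. *Id2* held 1 GGCGCC, 231 bases before the start, and 1 CANNTG. *Id4* held 1 GGCGCC, 148 bases before the start, and no CANNTG. *Id3* held neither in this window. *Bmp4* held 3 CANNTG, from 188 to 123 bases before the start, and no GGCGCC. A match describes the letters and is not evidence of binding.

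Expression is given as CPM, counts scaled by edgeR to the effective library size (TMM), with the SD over libraries. *Ptbp1* was measured at 381 CPM in WT, at 210 to 234 CPM in Het, and at 27.9 CPM in KO1, 6.04 CPM in KO2 and 46.9 CPM in KO3, in descending order of intact alleles. Retinal progenitor markers were present in every library, with 8 genes summing to 2976 to 3412 CPM. Some libraries stood apart. Het1 held the most of all 10 skeletal muscle markers, which summed to 321 CPM against 8.45 to 11.4 CPM elsewhere, of 9 of 9 mesenchyme markers (430 CPM against 16.6 to 57.2 CPM), and of 7 of 8 pigment cell markers (523 CPM against 20.7 to 61.1 CPM). KO1 and KO2 held the least of 9 of 12 endothelial markers, as described beside *Bmp4*. The 7 microglia markers summed to 69.0 to 92.1 CPM in KO against 47.6 to 67.2 CPM in Het, and 1 of them, *Cx3cr1*, rose (log2 fold change 0.71, edgeR adjusted p = 0.0429). Of 5 astrocyte and optic stalk markers, *Gfap* rose (1.43, edgeR adjusted p = 0.0189). Of the pigment cell markers, *Rgr* fell (-1.30, edgeR adjusted p = 0.00757). The part of these cells in the results was not tested. A fall in the number of cells of a type and a fall in RNA per cell cannot be told apart in such bulk samples.

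None of the 10 genes met the limits for differential expression between Het and KO, which were an adjusted p under 0.05 together with a log2 fold change beyond 0.263 in either direction. The count was 0 by edgeR's quasi-likelihood test and 0 by DESeq2, whereas 7.22% of the 20019 genes tested passed by edgeR, 4.01% upward and 3.21% downward. At an unadjusted p below 0.05 (edgeR), 4 of the 10 passed (*Id1*, *Id2*, *Id4* and *Bmpr1b*), against 29.7% of all genes. Het and KO values were fully separated in 3 of the 10 (*Id1*, *Id2* and *Smad7*), against 36.3% of all genes. The median log2 fold change of the 10 was -0.058, beside -0.0047 over all genes tested. All 10 passed the expression filter. For 10 genes, these counts are close to the shares over all genes.

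**Figure D1:**
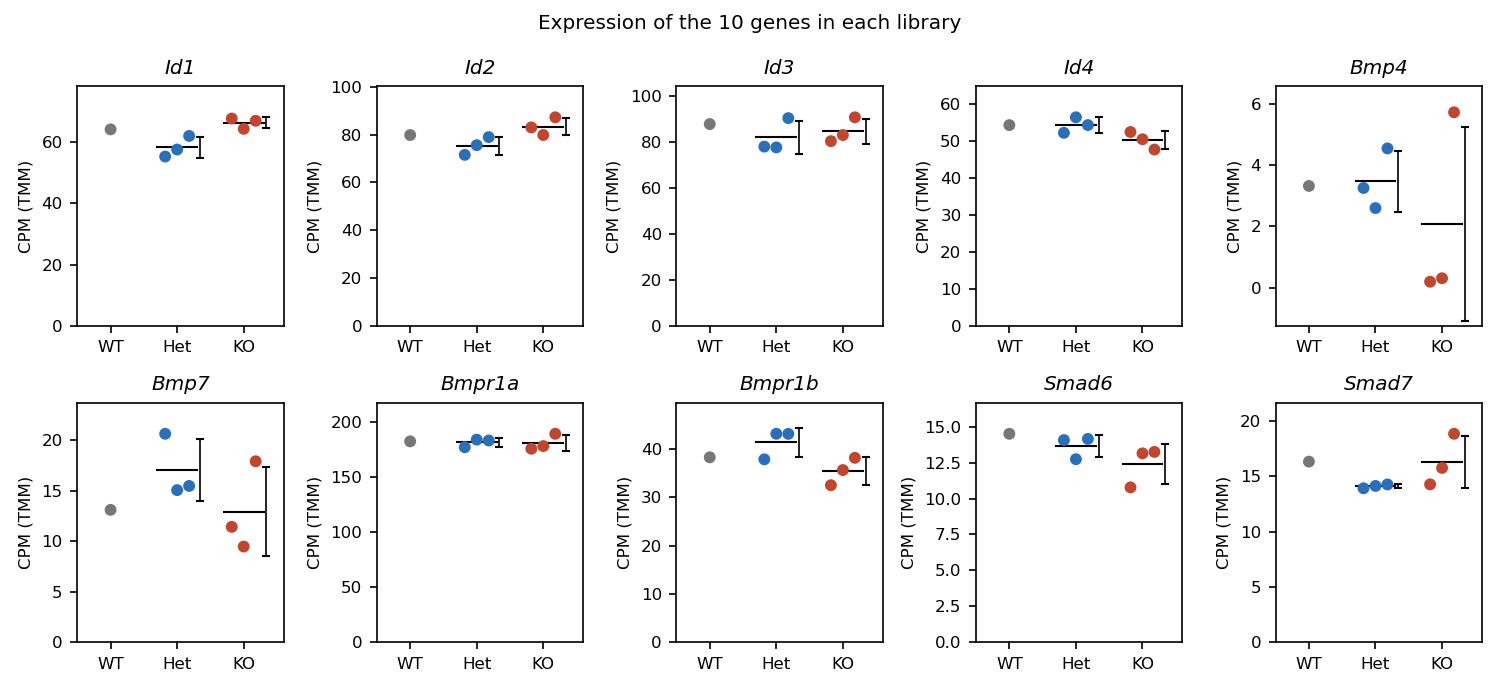
Expression of each gene in CPM after TMM scaling (y axis, linear) for WT (grey), Het (blue) and KO (red); points are libraries, ordered 1 to 3 from left to right within Het and KO, lines are means and bars are SDs (n = 3). The 3 KO libraries lie above the 3 Het libraries for *Id1*, *Id2* and *Smad7*, and the KO points of *Bmp4* split into 2 near 0 and 1 at 5.72 CPM.

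Among the *Id* genes, *Id1* (ENSMUSG00000042745.9; chromosome 2, 152736251 to 152737410) had the largest difference relative to its error. It was measured at 55.2, 57.5 and 61.9 CPM across Het1, Het2 and Het3 and at 67.6, 64.2 and 66.8 CPM across KO1, KO2 and KO3. The lowest KO value exceeded the highest Het value. The means were 58.2 ± 3.41 CPM in Het and 66.2 ± 1.77 CPM in KO (SD, n = 3 each), which is 0.19 as a log2 fold change (standard error 0.047, edgeR adjusted p = 0.0518). The 95% interval, from 0.07 to 0.30, spans the fold limit. DESeq2 gave a log2 fold change of 0.18 with an adjusted p of 0.0109, and over all alternatives the adjusted p ran from 0.0109 to 0.177, with the fold change at 0.15 to 0.23, below the limit in each.

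*Id2* (ENSMUSG00000020644.8; chromosome 12, 25093799 to 25097140), a regulator of cell cycle exit and differentiation in many lineages, was at 71.5, 75.6 and 79.0 CPM across Het1, Het2 and Het3. Across KO1, KO2 and KO3 it was at 83.0, 79.8 and 87.3 CPM. The groups did not overlap, although Het3 and KO2 were less than 1 CPM apart. KO minus Het was 0.15 on the log2 scale (standard error 0.049, edgeR adjusted p = 0.103).

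*Id3* (ENSMUSG00000007872.3; chromosome 4, 136143497 to 136145755), often induced together with *Id1*, had the highest mean CPM of the 4, although *Id2* exceeded it in KO1. Its values were 78.0, 77.7 and 90.4 CPM across Het1, Het2 and Het3 and 80.4, 83.0 and 90.8 CPM across KO1, KO2 and KO3, so the groups overlapped. On the log2 scale KO minus Het was 0.047, with a 95% interval from -0.13 to 0.22 (edgeR adjusted p = 0.701).

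*Id4* (ENSMUSG00000021379.1; chromosome 13, 48261228 to 48266026), a member with a narrower, largely neural expression, had a fold change of the other sign. It was at 52.3, 56.5 and 54.4 CPM across Het1, Het2 and Het3 and at 52.5, 50.5 and 47.7 CPM across KO1, KO2 and KO3, where KO1 lay within the Het range. This gave a log2 fold change of -0.11 (standard error 0.045, edgeR adjusted p = 0.153). Annotated on the strand opposite to *Id4* are *A330033J07Rik*, with 28 to 52 counts, and *Gm49291*. *Id4* itself had 6361 to 8880 counts.

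Because *Id1* and *Id4* differed in sign, their ratio was followed within each library, a comparison chosen after the values were seen and not tested. *Id1* over *Id4* was 1.18 in WT, 1.06, 1.02 and 1.14 across Het1, Het2 and Het3, and 1.29, 1.27 and 1.40 across KO1, KO2 and KO3. The KO ratios lay above the other 4. The summed expression of the 4 *Id* genes was 286 CPM in WT, 257 to 286 CPM in Het and 278 to 293 CPM in KO, with overlapping groups.

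The WT library, which has no replicate, was nearer KO than Het for several of these genes. For *Id1* it was at 64.0 CPM, above the 3 Het libraries and just below the lowest KO library. *Id2* was at 79.8 CPM in WT, likewise above all 3 Het libraries. *Id3* and *Id4* were at 87.8 and 54.4 CPM in WT, within the Het range. *Smad7* was at 16.3 CPM, above all 3 Het libraries and within the KO range. In all 3 genes with separated Het and KO values, WT was thus nearer the KO mean on the log2 scale, whereas this held for 17.2% of the 7259 tested genes separated in that way. WT lay past all 3 Het libraries on the KO side in the same 3 genes, and in 32.4% of those 7259. Among the genes with overlapping Het and KO values, *Bmp7* was likewise past all 3 Het libraries and nearer KO, at 13.1 CPM in WT. *Id3* was nearer KO too, and the others were nearer Het. With 1 WT library these positions were not tested.

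The ligand *Bmp4* (ENSMUSG00000021835.14; chromosome 14, 46383520 to 46390669), a dorsal and ciliary margin signal in the eye, varied more within KO than between genotypes. It had 493 counts in WT, 552, 309 and 689 counts across Het1, Het2 and Het3, and 25, 40 and 762 counts across KO1, KO2 and KO3. In CPM these were 3.32 in WT, 3.25, 2.59 and 4.54 in Het, and 0.189, 0.304 and 5.72 in KO. KO1 and KO2 were at 5.45% and 8.78% of the Het mean, and KO3 at 165% of it. The highest KO library was 30.3 times the lowest, a spread that 26 of the 13750 genes above 1 CPM on average exceeded. The log2 fold change of -0.74 therefore had a standard error of 1.16 and a 95% interval from -3.52 to 2.04 (edgeR adjusted p = 0.702).

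The call on *Bmp4* rested on KO3. Without KO3 the log2 fold change was -3.81 (standard error 0.357, edgeR adjusted p = 0.00888). *Bmp4* was then the 1 gene of the 10 that passed, beside 1673 of 19944 over all genes. With KO3 as the only KO library, assumed to vary like the other groups, the log2 fold change of *Bmp4* was 0.72. Over all alternatives the adjusted p ran from 0.00472 to 0.918. Genes on the opposite strand overlap *Bmp4*, namely *Gm15217* with 0 to 14 counts and *Gm15222* with 0 to 12 counts. The largest exon overlap with *Bmp4* was 89 bases for *Gm15217* and 0 bases for *Gm15222*. The strand setting of the counting is not given in the sources used here. Reads of *Gm15217* over the shared bases therefore cannot be told apart from those of *Bmp4*.

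Markers of some other tissues were, like *Bmp4*, low in KO1 and KO2. Genes below every other library in both numbered 0 of 10 for skeletal muscle, 0 of 7 for microglia and 0 of 5 for astrocyte and optic stalk. They numbered 2 of 9 for mesenchyme, 2 of 8 for retinal progenitors, 4 of 8 for pigment cells and 7 of 11 for lens. Of 13 ciliary margin genes, a list drawn up after the *Bmp4* values were seen, 11 were lower in KO1 and KO2 than in all other libraries, against 12.2% of the genes tested. The 11 include *Cdo1* and *Tgfb2*, which fell and were low in KO3 as well, at 17.6 and 132 CPM there against at least 21.1 and 163 CPM in Het. The 13 genes summed to 562 CPM in KO1 and 608 CPM in KO2, against 841 to 988 CPM in the other 5 libraries. Among endothelial markers 9 of 12 were lowest in KO1 and KO2, and *Pecam1*, which defines vessels, was at 0.82 and 0.54 CPM there against 1.94 to 5.67 CPM elsewhere. Without *Kdr*, which was at 361 to 562 CPM and rose in KO (log2 fold change 0.44, edgeR adjusted p = 0.0186), the other 11 summed to 24.1 and 20.1 CPM in KO1 and KO2 and to 29.8 to 54.9 CPM elsewhere. Lens markers were also low, summing to 2.84 and 7.55 CPM in KO1 and KO2, below all other libraries, which reached 83.4 CPM, and *Lim2* was at 0 in every library. The lens gene *Foxe3* fell (log2 fold change -7.90, edgeR adjusted p = 0.0262) and was low in KO3 as well. It had 20, 163 and 417 counts across Het1, Het2 and Het3 and 0, 0 and 2 counts across KO1, KO2 and KO3. The retinal progenitor markers summed to 2976, 3061 and 3062 CPM across KO1, KO2 and KO3, below the 3176 to 3382 CPM of Het and the 3412 CPM of WT. Among them *Fgf15* fell in KO (log2 fold change -0.49, edgeR adjusted p = 0.0110), and without it the sums were 2484 to 2506 CPM in KO and 2476 to 2602 CPM in Het. The part of these tissues in the *Bmp4* values was not tested.

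**Figure D2:**
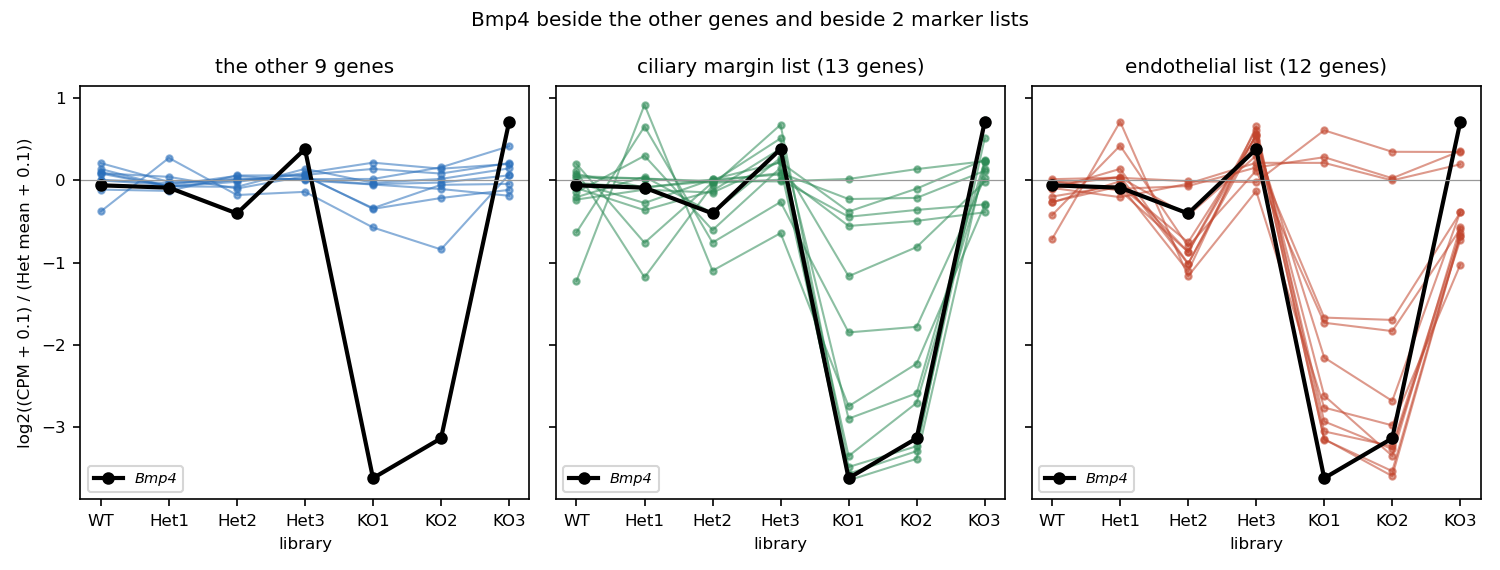
Level of each gene in each library relative to its Het mean, as log2((CPM + 0.1) / (Het mean + 0.1)) on the y axis, with libraries on the x axis; the black line is *Bmp4* in all panels, and coloured lines are the other 9 genes, 13 ciliary margin genes and 12 endothelial genes. *Bmp4* and most genes of the marker lists are low in KO1 and KO2 and higher in KO3, whereas *Id1* to *Id4* stay near 0.

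The *Id* genes did not share the split among KO libraries. Their highest KO library was 1.05, 1.09, 1.13 and 1.10 times the lowest for *Id1* to *Id4*, beside 30.3 times for *Bmp4*.

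*Bmp7* (ENSMUSG00000008999.7; chromosome 2, 172868012 to 172940321), a ligand required for eye formation, was at 13.1 CPM in WT. It was at 20.6, 15.1 and 15.5 CPM across Het1, Het2 and Het3 and at 11.4, 9.48 and 17.9 CPM across KO1, KO2 and KO3. KO1 and KO2 were below every other library, and Het1, with the pigment cell and mesenchyme markers, was highest. Its log2 fold change was -0.40 (standard error 0.246, edgeR adjusted p = 0.322). Leaving out 1 library, the value was -0.70 without KO3 (edgeR adjusted p = 0.0513), -0.24 without Het1 and -0.22 without KO2. Leaving out Het1 and KO3 together, which was decided once the data had been seen, gave -0.54 (edgeR adjusted p = 0.0230, from 0.0230 to 0.881 over all alternatives), and with KO3 as the only KO library 0.063.

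Of the receptors, *Bmpr1a* (ENSMUSG00000021796.14; chromosome 14, 34410734 to 34503341) was level. Its values were 183 CPM in WT, 177, 184 and 184 CPM across Het1, Het2 and Het3, and 176, 178 and 190 CPM across KO1, KO2 and KO3. KO minus Het was -0.0031 on the log2 scale, with a 95% interval from -0.094 to 0.087 that lies within the fold limit on either side (edgeR adjusted p = 0.965). The opposite-strand gene *Gm17110*, with 5 to 13 counts, overlaps it.

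*Bmpr1b* (ENSMUSG00000052430.15; chromosome 3, 141837136 to 142169425), a second type 1 receptor, was at 38.2 CPM in WT. It was at 37.8, 43.1 and 43.1 CPM across Het1, Het2 and Het3 and at 32.5, 35.6 and 38.1 CPM across KO1, KO2 and KO3, with Het1 just below KO3. The difference was -0.22 on the log2 scale (standard error 0.075, edgeR adjusted p = 0.104). DESeq2 gave an adjusted p of 0.0223 at a log2 fold change of -0.23, short of the fold limit, and without Het1 and KO3 edgeR gave -0.34 (edgeR adjusted p = 0.0147, from 0.0147 to 0.463 over all alternatives).

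The inhibitory Smads are feedback targets that block receptor signalling. *Smad6* (ENSMUSG00000036867.7; chromosome 9, 63953076 to 64022059), the more BMP-selective inhibitor, was at 14.5 CPM in WT, 14.1, 12.7 and 14.1 CPM across Het1, Het2 and Het3, and 10.8, 13.1 and 13.2 CPM across KO1, KO2 and KO3. The groups overlapped, and the log2 fold change was -0.14 with a 95% interval from -0.37 to 0.087 (edgeR adjusted p = 0.363). Without KO1, its lowest library, the value was -0.049.

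*Smad7* (ENSMUSG00000025880.11; chromosome 18, 75367529 to 75395935), which acts on BMP and TGF-beta receptors, was at 13.9, 14.1 and 14.3 CPM across Het1, Het2 and Het3. Across KO1, KO2 and KO3 it was at 14.3, 15.8 and 18.8 CPM. The groups did not overlap, but Het3 and KO1 differed by under 0.01 CPM. As a log2 fold change this was 0.21 (standard error 0.101, edgeR adjusted p = 0.220), and KO3 set much of it, since without KO3 it was 0.093. With KO3 as the only KO library it was 0.41 (edgeR adjusted p = 0.0449, from 0.0449 to 0.501 over all alternatives).

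**Figure D3:**
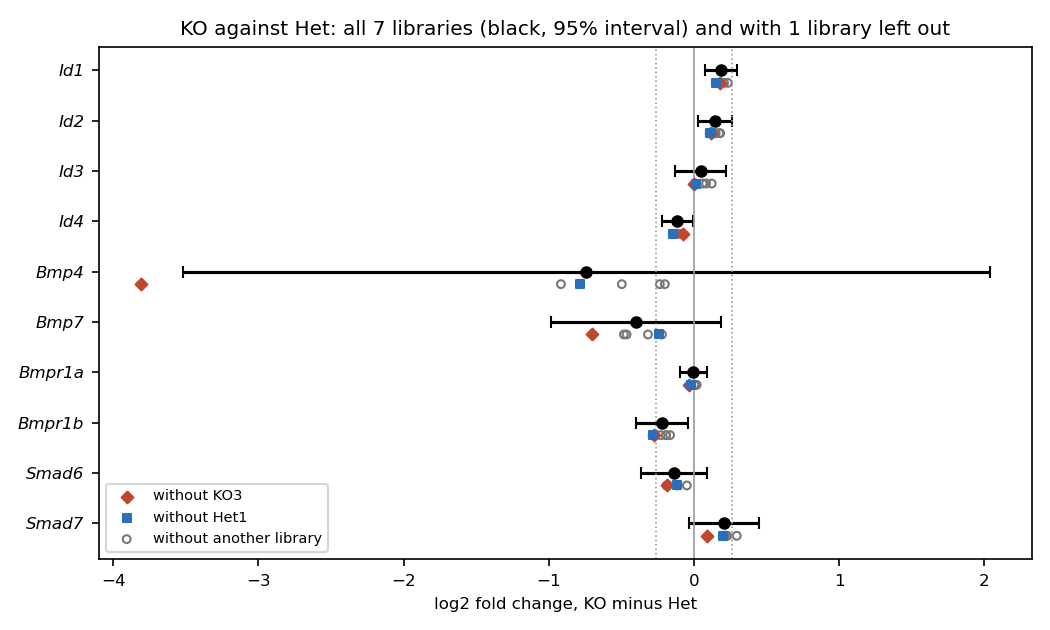
Log2 fold change of KO minus Het (x axis) for the 10 genes with the 95% interval from edgeR (black), and the fold change when 1 library was left out (red diamond, KO3; blue square, Het1; open circles, others); dotted lines mark the fold limit of 0.263. The interval is narrowest for *Bmpr1a* and widest for *Bmp4*, which moves from -0.74 to -3.81 without KO3.

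Levels between genes were compared per kilobase of annotated exon, in the Het libraries. *Id1* came first at 50.1 ± 2.94 CPM per kilobase and *Id3* second at 45.8 ± 4.05 (SD, n = 3 each), and these overlapped. *Id2* followed at 30.9 ± 1.53, *Bmpr1a* at 28.6 ± 0.596 and *Id4* at 14.1 ± 0.547 CPM per kilobase, without overlap between neighbours. *Bmpr1b* was at 6.94 ± 0.510 CPM per kilobase. *Smad6* at 4.26 ± 0.247 and *Bmp7* at 4.25 ± 0.772 CPM per kilobase overlapped. *Smad7* was at 3.12 ± 0.0385 and *Bmp4* lowest at 1.54 ± 0.441 CPM per kilobase. The readout genes *Id1* to *Id3* and the receptor *Bmpr1a* were thus expressed well above the ligands per length.

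The wider pathway was followed with 60 further genes, listed by role: ligands, extracellular modulators, receptors, Smads with their regulators, targets, and the E proteins that Id proteins bind. Of the 59 tested, 2 were differentially expressed upward and 2 downward, a share of 4 in 59 beside the 7.22% of all genes. The median log2 fold change was -0.16, and 40 of 59 were negative, as were 10200 of all 20019 genes. At an unadjusted p below 0.05 (edgeR) 16 of the 59 passed, beside 29.7% of all genes.

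Among 9 receptors and co-receptors, *Rgmb*, a BMP co-receptor of the repulsive guidance family, fell. It was at 51.4, 51.6 and 50.9 CPM across Het1, Het2 and Het3 and at 37.5, 41.7 and 38.6 CPM across KO1, KO2 and KO3, well apart. Its log2 fold change was -0.39 (standard error 0.042, edgeR adjusted p = 0.00660), and it passed under each of 15 alternatives. The 2 receptors with the highest CPM, *Bmpr2* and *Acvr2a*, had log2 fold changes of -0.0050 and 0.039. *Bambi*, a decoy receptor, passed by DESeq2 (log2 fold change -0.28, adjusted p = 0.0284) and not by edgeR with all libraries (adjusted p = 0.112). Without KO3, *Bambi* (log2 fold change -0.36, edgeR adjusted p = 0.0377) and the co-receptor *Eng* (-3.63, edgeR adjusted p = 0.0170) passed. *Eng* was at 7.89, 3.67 and 10.9 CPM across Het1, Het2 and Het3 and at 0.694, 0.517 and 4.61 CPM across KO1, KO2 and KO3.

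Of 19 extracellular antagonists and modulators, 1 rose and 1 fell by edgeR. DESeq2 also called *Bmper* lower (log2 fold change -0.38, adjusted p = 0.0251), beside an edgeR adjusted p of 0.102. *Vwc2l*, a chordin-like BMP modulator, was at 0.471, 0.403 and 0.402 CPM across Het1, Het2 and Het3 and at 1.23, 0.859 and 0.983 CPM across KO1, KO2 and KO3. Its log2 fold change was 1.26 (standard error 0.191, edgeR adjusted p = 0.0136), and the call was lost without Het2 (0.0689), without Het3 (0.0606) and with KO3 as the only KO library (0.0651). *Crim1*, a membrane protein that binds BMPs, was at 58.4, 50.4 and 54.1 CPM in Het and 42.9, 44.9 and 46.4 CPM in KO. The log2 fold change of *Crim1* was -0.28 (standard error 0.058, edgeR adjusted p = 0.0305), and 7 of 15 alternatives ended its call. The most abundant, *Fstl1* and *Twsg1*, had log2 fold changes of -0.44 and -0.070 and did not pass. Without KO3, *Fstl1* and the antagonist *Grem1* passed, at -0.63 and -1.002.

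Among 11 Smads and regulators, *Pmepa1*, which encodes a Smad-binding inhibitor of TGF-beta signalling, rose. It was at 272, 252 and 255 CPM across Het1, Het2 and Het3 and at 356, 318 and 312 CPM across KO1, KO2 and KO3, without overlap. This was a log2 fold change of 0.34 (standard error 0.059, edgeR adjusted p = 0.0195), and leaving out Het2 (edgeR adjusted p = 0.0919), Het3 (0.0792) or KO2 (0.0611), or KO1 together with KO2 (0.0754), ended the call. *Tob2*, which encodes an antiproliferative protein, had an adjusted p of 0.00831 (edgeR) at a log2 fold change of 0.26, just under the fold limit. The abundant *Skil* and *Ski* had log2 fold changes of 0.047 and -0.070.

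None of the 10 other ligands tested passed by edgeR, and 1 had an unadjusted p below 0.05. The most abundant, *Gdf6*, *Bmp2* and *Gdf10*, had log2 fold changes of -0.22, -0.72 and 0.38. *Bmp2* had 875, 475 and 676 counts across Het1, Het2 and Het3 and 253, 263 and 582 counts across KO1, KO2 and KO3, so that KO1 and KO2 were again low. *Bmp2* passed by DESeq2 (adjusted p = 0.0477) and not by edgeR with all libraries (adjusted p = 0.202). Without KO3 its log2 fold change was -1.21, and it passed by edgeR (adjusted p = 0.0124).

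None of the 7 other targets passed by edgeR, 2 had an unadjusted p below 0.05, and DESeq2 called 0. Without KO3, *Msx1* (log2 fold change -3.56, edgeR adjusted p = 0.0235) and *Msx2* (-2.04, edgeR adjusted p = 0.0202) passed. The dorsal factors *Tbx2* and *Tbx3* and the Notch and BMP target *Hey1* were the most abundant, with log2 fold changes of 0.12, 0.016 and -0.067. *Msx1* and *Msx2*, both expressed at the ciliary margin and named after their values were seen, were lower in KO1 and KO2 than in KO3, as *Bmp4* was. Among the Het libraries *Msx1* was lowest in Het1, whereas *Bmp4* was lowest in Het2. In WT *Msx1* was at 7.34 CPM, with 2.94, 6.51 and 10.9 CPM across Het1, Het2 and Het3, and 0.513, 0.631 and 9.71 CPM across KO1, KO2 and KO3.

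The 3 E proteins were abundant, and *Tcf4* had an adjusted p of 0.0217 (edgeR) at a log2 fold change of 0.21, under the fold limit. *Tcf4* was at 226, 223 and 223 CPM across Het1, Het2 and Het3 and at 272, 253 and 252 CPM across KO1, KO2 and KO3. *Tcf12* and *Tcf3* had log2 fold changes of -0.013 and -0.074.

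**Figure D4:**
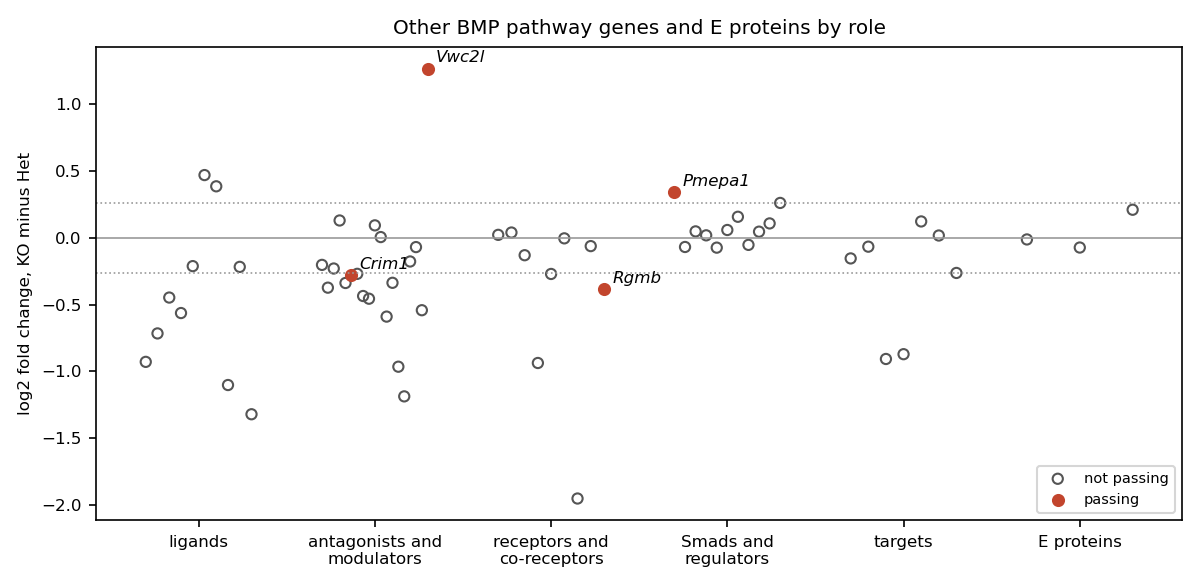
Log2 fold change of KO minus Het (y axis) for the 59 tested genes of the wider pathway, grouped by role on the x axis; filled points passed the limits for differential expression, and dotted lines mark the fold limit of 0.263. *Vwc2l* and *Pmepa1* lie above the upper line, *Rgmb* and *Crim1* below the lower line, and the lowest open point is *Eng* at -1.95.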

How the data were processed

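Alignment by the authors used STAR, run through rMATS-turbo, against GRCm38 (GENCODE M10). Gene counts were taken from these alignments with featureCounts, and the deposited values are whole-number counts without normalization. Tool versions, the strand setting and the handling of reads with several hits are not given in the sources used here. Totals ranged from 120593979 to 171117305 counts, and replicates differed by 4.39 to 13.0 times the counting variance, so none was a copy. Groups came from the sample labels. Nothing states separate litters, so p-values measure the spread between pools.

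Counts were filtered with filterByExpr (20019 genes), scaled by TMM and fitted with edgeR 4.0.16 in R 4.3.3 by quasi-likelihood over all 7 libraries, with KO minus Het as the contrast. Benjamini-Hochberg adjustment covered all genes tested. The standard error was the fold change over the square root of F. The scripts were tested on simulated data. DESeq2 1.42.0 and other settings served as alternatives. Coordinates and exon lengths came from GENCODE M21 on GRCm38, which places 19931 of the tested genes.

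The 10 genes and the lists were chosen with earlier results of these data known. All 10 are named, then the pathway genes that passed or are the most abundant of their role. The methods name a column kit for RNA extraction, whereas the labels name TRIzol. For 1 gene, exact permutation of the 3 Het and 3 KO labels gives no p under 0.1.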

Additional observations from a re-analysis of the deposited data

How the results depend on the processing

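No setting of normalization, filter or tool brought any of the 10 genes past the limits. The count of 0 held in 13 of 16 alternatives. With 1 library left out the count ranged from 0 to 1 (1 without KO3, *Bmp4*, beside 1673 of 19944 over all genes). It was 3 without Het1 and KO3 (*Bmp4*, *Bmp7*, *Bmpr1b*), beside 1998 of 19477 over all genes. The remaining exception was the fit without KO1 and KO2, which kept 1 KO library and put *Smad7* at a log2 fold change of 0.41. Both of these settings were chosen after seeing the data. For the 59 pathway genes the count of 4 became 7 with DESeq2. Of all genes, DESeq2 called 2070 of the 29424 that had a p-value. Some of these, such as *Bmp10* and *Gdf5*, had no adjusted p and could not be called, so this share is not comparable with that of edgeR. The pathway count was 1 to 11 with 1 library left out. It was 2 without Het2, 1 without Het3, and 11 of 59 tested without KO3 (1673 of 19944 over all genes). It was 15 of 56 tested without Het1 and KO3 (1998 of 19477 over all genes). Over all genes, 1445 became 2221 with the adjusted p alone, 386 to 1673 with 1 library left out (386 when it was Het2, 496 for Het3, 612 for KO2), and 659 leaving out KO1 and KO2. The causes were not tested. The log2 fold change turned sign for *Bmp4* (0.72) and *Bmp7* (0.063) without KO1 and KO2, and for *Id3* without Het1 and KO3 (-0.038), with -0.0025 to 0.12 when 1 library was left out. For *Bmpr1a*, at -0.0031, it was 8.1e-05 with at least 10 counts in every library, 0.054 without KO1 and KO2, and -0.033 to 0.019 with 1 library left out. *Id1*, *Id2*, *Id4*, *Bmpr1b*, *Smad6* and *Smad7* kept their sign in all 15 alternatives to the fit.

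Nothing states that the replicate numbers pair the samples. Deviations of same-numbered Het and KO libraries correlated at -0.12, 0.26 and 0.019, and those of differently numbered ones at -0.35 to 0.22. The deviations were centred within 3 libraries, which ties these correlations together, so they cannot settle whether the samples are paired. With the replicate number as a block, 0 of the 10 genes, 4 pathway genes and 1268 genes in all passed, and *Crim1* lost its call (edgeR adjusted p = 0.0600). *Bmp4* was then at -2.29 (edgeR adjusted p = 0.207). *Bmpr1b* reached an edgeR adjusted p of 0.0336 with the block, at a log2 fold change of -0.22, short of the fold limit. Counting depth limits the low values of *Bmp4*, with 25 and 40 counts in KO1 and KO2.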

Other observations

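The genes that dipped with *Bmp4* in KO1 and KO2 are given here as values, chosen after they were seen. *Gja1*, which encodes the gap junction protein connexin 43, was at 93.3 CPM in WT, 81.5 to 130 CPM in Het, and 8.47, 10.2 and 125 CPM in KO1 to KO3. *Otx1*, a ciliary margin homeobox gene, was at 12.8 CPM in WT, 10.6 to 17.9 CPM in Het, and 1.25, 2.01 and 15.0 CPM in KO1 to KO3. *Wfdc1* was at 19.9 CPM in WT, 10.2 to 24.7 CPM in Het, and 2.23, 2.79 and 20.4 CPM in KO1 to KO3. *Cpne8* did not dip, at 27.5, 29.9 and 32.0 CPM in KO1 to KO3. *Cdo1* fell with little spread among the KO libraries, from 21.1 to 21.9 CPM in Het to 15.8, 16.8 and 17.6 CPM in KO1 to KO3 (log2 fold change -0.37, edgeR adjusted p = 0.0120). In all, 231 tested genes were below every other library in KO1 and KO2 and at least 4-fold lower there than in KO3. KO3 came from 6 pooled retinas, and KO1 and KO2 from 4 each.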
